A study of Mus musculus with 12 samples.

Results

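The genes that moved the same way with all 3 NUP98-HOX fusions, including the one whose homeodomain cannot bind DNA, were sought by setting the 9 fusion arrays, 3 each for ND13, NA10 and ND13(N51S), against the 3 arrays of the GFP control. These 12 arrays are all that the series holds. NUP98 is a protein of the nuclear pore, and in the leukemia-associated fusions its N-terminal part, rich in phenylalanine-glycine repeats, is joined to the C-terminal part of a HOX protein with its DNA-binding homeodomain. ND13 carries that of HOXD13 and NA10 that of HOXA10, while ND13(N51S) is ND13 with an asparagine-to-serine exchange in the homeodomain that abolishes DNA binding. Such fusions expand primitive hematopoietic cells and block their differentiation. A change that the mutant as well as both active fusions bring about would not need an intact homeodomain. The question here was which transcripts changed the same way with all 3. All 3 were compared with the same 3 control arrays, so whether the fusions brought about a shared change was not tested.

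All 4 groups were bone marrow cells of adult (C57Bl/6Ly-Pep3b×C3H/HeJ) F1 mice, harvested 4 days after a dose of 150 mg/kg of 5-fluorouracil. The cells were prestimulated for 48 hours with human IL-6 (10 ng/mL), murine IL-3 (6 ng/mL) and murine SCF (100 ng/mL), then exposed for 2 days to GP+E86 virus producer cells irradiated with 4000 cGy and cultured for another 24 hours. GFP+ Sca-1+ Lin- cells were sorted. The control carried the retroviral vector MIG, which encodes GFP alone, and the fusion groups the same vector with 1 of the 3 fusions, so that every sample had met the virus, the drug and the cytokines. The labels give 3 independent experiments for each group and do not say whether marrow was pooled from several mice. In bulk RNA of this kind, fewer cells of a type and less RNA per cell cannot be told apart.

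Array medians ran from 128.5 to 159.5 signal units. Background was taken on each array as the 0.95 quantile over its 27 bacterial controls and ran from 28.5 to 69.8. Between 14446 and 17695 probe sets lay above it. One array stood apart: in ND13(N51S) replicate 2 the 3′-to-5′ ratio of Gapdh was 48.9 and that of actin 9.09, against at most 2.71 on the other arrays. GFP control replicate 1 came with an experiment record that names another fraction, cells without GFP from the ND13(N51S) culture, and its label was kept. Kit and Cd34, which mark primitive cells, were above background on all 12 arrays with log2 changes of -0.08 and -0.14 over the fusions. Of the depleted lineage markers with a probe set, Cd4 was above background on 0 of the 12 arrays, Cd8b1 on 4, Cd5 on 8 and Cd8a on 10, with signals of at most 143.9. Ptprc, whose B220 form was depleted and whose other forms all leukocytes carry, was above it on all 12. The mouse probe sets of the genes in the constructs gave 0.02 for Nup98 and 0.13 for Hoxa10 on the log2 scale, and Hoxd13 was not above background on any array.

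Over all fusions 27 of 22626 probe sets rose (0.119%) and 1 fell (0.00442%), at limma's adjusted p < 0.05, a mean change of at least 1.5-fold and the same sign with each fusion. These were 22 genes that rose, 2 probe sets without a single gene of their own, and Mycn, which fell. Each of the 28 had the same sign with all 3 fusions, and 23 of the 27 that rose, and Mycn, reached 1.5-fold with every fusion. The exceptions were Tpm4, Ccr1 and Ctsh, which fell short of it with NA10, and 1 of the probe sets without a single gene. Taken singly, ND13 gave 62 higher (0.274%) and 5 lower (0.0221%) probe sets. NA10 gave 8 higher (0.0354%) and 1 lower (0.00442%). The mutant gave 3 in each direction (0.0133% each). Of the 27 probe sets that rose, 2, of Jun and Ctsh, had limma's adjusted p below 0.05 with the mutant alone. The 3 comparisons share the same 3 control arrays. With every fusion required to pass on its own, 0 rose and only Mycn fell. On all 9 fusion arrays the signal lay above all 3 controls for 15 of the 27 that rose, against 0.871% of all probe sets, and below them for Mycn, against 0.371%. A looser rule, called the unadjusted rule here, took limma's p below 0.05 without adjustment, a 1.5-fold mean and equal signs. It gave 837 probe sets higher (3.7%) and 1.08% lower, and 77.4% of these were higher. After quantile normalisation 68.8% of them were, and after median centring 63.5%.

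These counts rest on the replicate number as a block. With no such block 6 probe sets rose and 0 fell, and 6 of the 28 were still called. With plain eBayes in place of the trend and robust settings 5 rose and 1 fell. The number that rose also depended on single arrays. Leaving out GFP control replicate 1, 2 or 3 gave 5, 14 and 6. Leaving out ND13 replicate 1, 2 or 3 gave 6, 9 and 17, and NA10 replicate 1, 2 or 3 gave 10, 9 and 10. Leaving out ND13(N51S) replicate 1 or 3 gave 38 and 26. Without ND13(N51S) replicate 2, the array with the high 3′-to-5′ ratios, it was 91 (0.402%) of 75 genes, with 3 lower (0.0133%), and all 28 were still called. Without both that array and GFP control replicate 1, 13 rose and 1 fell. Mycn, Dlk1, a probe set of Meg3 and the probe set with no gene assigned were called whichever single array was left out. Olfm1 and a second probe set of Meg3 were called in 11 and Itgb2 in 10 of the 12 such fits.

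Of 29 immediate early genes measured, 4 rose over all fusions, Jun, Zfp36, Egr1 and Dusp1, and none fell. Immediate early genes, transcribed shortly after a growth factor or stress signal without new protein synthesis, encode transcription factors such as the AP-1 subunits Fos and Jun and the feedback regulators that end the signal. Jun, the AP-1 subunit, read 170.3, 134.4 and 199.4 in the GFP control (replicates 1 to 3), 707.2, 541.8 and 542.2 with ND13, 228.1, 261.7 and 294.4 with NA10, and 475.8, 443 and 886.4 for the mutant. By this probe set every fusion array lay above every control array, NA10 nearest to the controls. Its mean log2 change was 1.42 ± 0.20 (SE, n = 9 fusion arrays against 3; limma's adjusted p = 0.0213), made of 1.84 with ND13, 0.65 with NA10 and 1.79 with the mutant. A second, dimmer Jun probe set gave 2.39 and was not called (limma's adjusted p = 0.316). There the mutant arrays at 92.2 and 70.3 overlapped controls at 89.8 and 109.2. The paper also measured Jun by quantitative RT-PCR on unamplified RNA of the transduced cells. By that measure Jun was raised with ND13 but close to the control with NA10 and with the mutant, so its rise with the mutant was not seen. The same measure put Ptprf and Tgfbi, which also rose here, above the control with every fusion, least with the mutant.

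Zfp36 encodes tristetraprolin, which binds and destabilises cytokine mRNAs. It read 336.1, 249.4 and 505.6 in the GFP control, 1418.2, 1077.7 and 1033.3 with ND13, 671.9, 631.8 and 773 with NA10 and 730.3, 909.9 and 1328.5 for the mutant. Again no fusion array reached down to the controls, and the change was 1.39 ± 0.20 (adjusted p = 0.0213 by limma). Egr1, a zinc finger transcription factor, read 335.2, 300 and 212.1 in the GFP control, 2523.2, 889.5 and 586.3 with ND13, 1101.7, 591.6 and 480.9 with NA10 and 1015.8, 1783.7 and 1083.6 for the mutant, a change of 1.82 ± 0.29 without overlap (limma's adjusted p = 0.0406). Dusp1, a phosphatase that switches off MAP kinases, read 264, 212.4 and 774.4 in the GFP control, 1616.6, 1234.5 and 1148.2 with ND13, 949.2, 949.6 and 1349.3 with NA10, and 755.7, 1207.2 and 2426.2 for the mutant. One control array lay above the lowest fusion array of Dusp1, and its change of 1.80 ± 0.29 had an adjusted p of 0.0452 in limma. None of the 4 was called without GFP control replicate 1, where their adjusted p in limma was 0.165 for Jun, 0.184 for Zfp36 and 0.332 for Egr1 and for Dusp1, with log2 changes that stayed above 1.2 in every fit with 1 array left out.

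**Figure D1:**
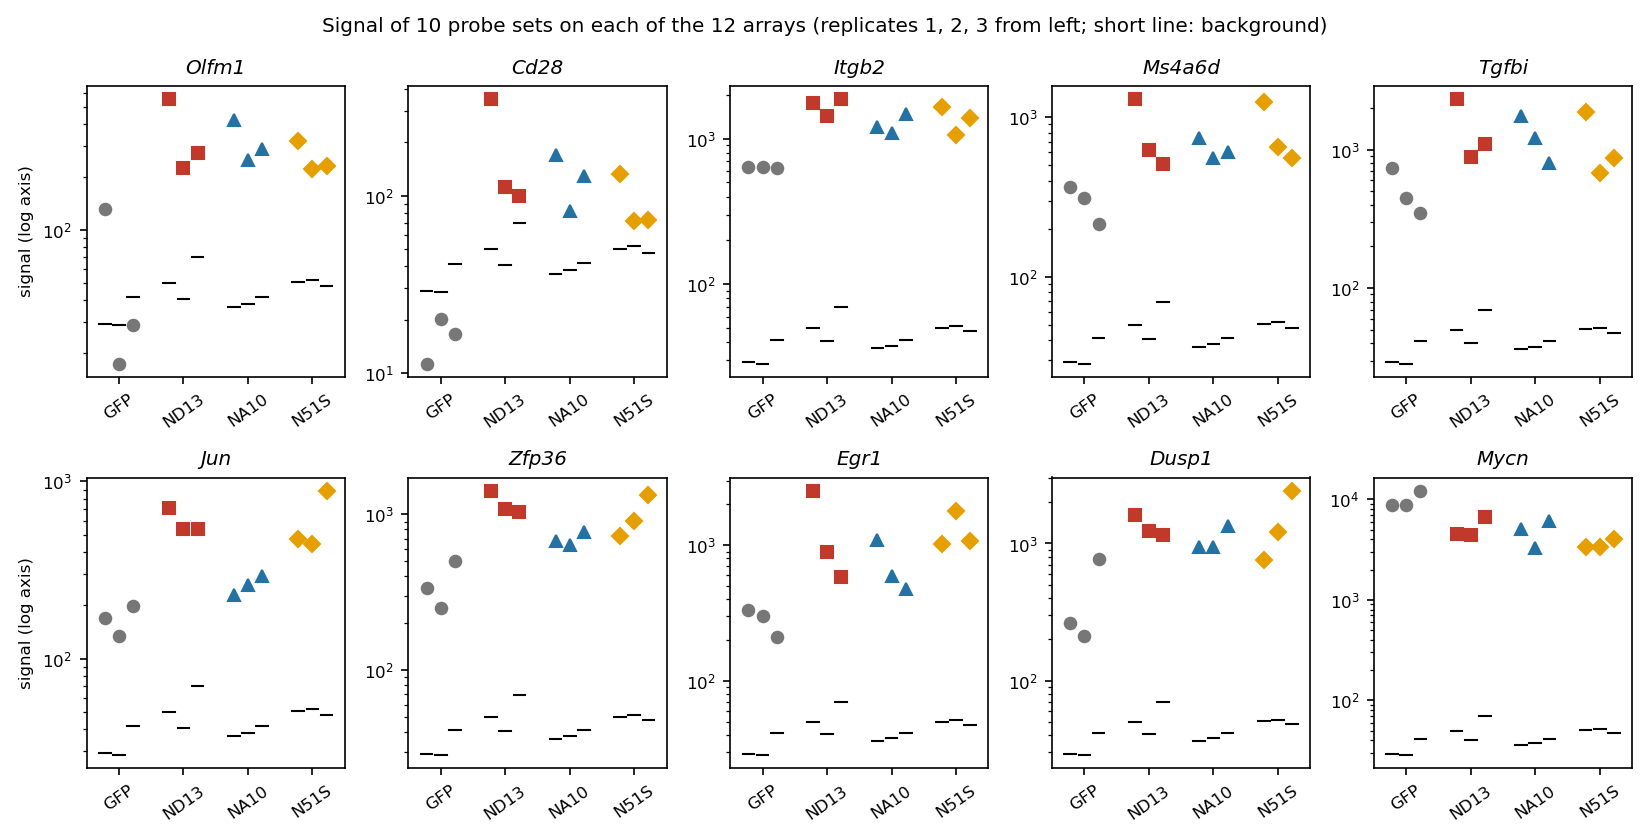
Signal (log axis) of 10 probe sets on each of the 12 arrays, by group, with replicates 1, 2 and 3 from left to right in each group and a short line at the background of that array. All fusion arrays lie above the 3 control arrays for Olfm1, Cd28, Itgb2, Ms4a6d, Jun, Zfp36 and Egr1 and below them for Mycn.

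By value 23 of the 29 were higher, 19 of them with each fusion. By the unadjusted rule 14 of the 29 genes (48.3%) were higher and 0 lower, against 4.11% higher and 0.839% lower of all 12393 genes with 1 probe set each. The median log2 change of the list was 0.79 (0.96 with ND13, 0.46 with NA10, 0.78 with the mutant), beside 0.02 for all genes. Among members that were not called, Klf4, a Krüppel-like transcription factor, read 52.1, 69.5 and 74.2 in the GFP control and 111.9 to 304.9 over the 9 fusion arrays (1.48, limma's adjusted p = 0.0851). Klf6, of the same family, read 110.1, 200.8 and 175.5 and then 263.3 to 1057 (1.76, adjusted p = 0.134 by limma). Ier3, an early gene that protects from apoptosis, had 0.79. Fos, the partner of Jun, had 1.49 at an adjusted p of 0.186 in limma. Junb gave 0.10, Ier2 -0.02 and Nr4a3 -0.30, and Nr4a3 was above background on 2 of 12 arrays.

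The level of the whole list on an array, taken as the median deviation of its genes from their mean over the 12 arrays, was -0.55, -0.63 and -0.51 on the log2 scale in the GFP control, 0.93, 0.33 and 0.18 with ND13, 0.06, -0.06 and -0.08 in the NA10 group, and 0.36, 0.25 and 0.57 for the mutant. No fusion array came down to a control array, and NA10 lay lowest among the fusions. Its median change ranged from 0.62, when GFP control replicate 1 was left out, to 0.89, when GFP control replicate 3 was, and from 0.58 to 0.79 under the scalings tried.

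To show what lies in front of these genes, the 250 bases before the RefSeq start are given for Dusp1 and Zfp36, which rose, and for Mycn, which fell, with 6 motifs searched on both strands. Capitals mark matches. In Dusp1 (chr17:26508473-26508722, GRCm38.p6, minus strand) they are the CRE core TGACGTC, once alone and once as a palindrome read on both strands, and the E-box CACGTG.

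Dusp1: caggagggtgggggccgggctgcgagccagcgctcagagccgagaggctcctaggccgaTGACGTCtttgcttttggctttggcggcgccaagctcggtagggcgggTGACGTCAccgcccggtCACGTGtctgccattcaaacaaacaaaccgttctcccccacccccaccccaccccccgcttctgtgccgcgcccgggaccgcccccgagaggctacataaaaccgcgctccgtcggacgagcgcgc
Zfp36: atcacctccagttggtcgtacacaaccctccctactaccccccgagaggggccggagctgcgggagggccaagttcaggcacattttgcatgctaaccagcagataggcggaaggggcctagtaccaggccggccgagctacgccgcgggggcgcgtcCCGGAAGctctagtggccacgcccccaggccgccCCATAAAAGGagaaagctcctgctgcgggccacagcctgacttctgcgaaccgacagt
Mycn: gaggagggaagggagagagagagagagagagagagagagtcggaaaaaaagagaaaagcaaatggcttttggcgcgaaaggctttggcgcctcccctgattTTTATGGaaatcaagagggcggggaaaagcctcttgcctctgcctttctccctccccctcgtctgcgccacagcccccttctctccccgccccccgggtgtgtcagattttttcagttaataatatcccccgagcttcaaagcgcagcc

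In Zfp36 (chr7:28379229-28379478, minus strand) the capitals are the ETS site CCGGAAG and a CArG box, the binding site of serum response factor, which overlaps a match to the posterior HOX site TTTATNG on the other strand. In Mycn (chr12:12941837-12942086, minus strand) they are the posterior HOX site alone. The promoter of Jun, not shown, held no match to any of the motifs searched. Of the called genes, 18 had RefSeq promoters, 20 in all. The CRE core stood in 4 of the 20 (Dusp1, Hlf, Meg3 and Tpm4) and in 2.78% of 32851 promoters, the posterior HOX site in 2 (Mycn and Zfp36) and in 9.81%, the CArG box, added after values were seen, in 2 (Meg3 and Zfp36) and in 1.47%. The E-box stood in 1 (6.02% of all), the ETS site in 1 (6.91%) and the AP-1 site TGANTCA in 0 (6.75%). A match of letters is a description of the sequence only.

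Itgb2, the beta chain shared by the leukocyte integrins, read 637.5, 635.8 and 630.1 in the GFP control, 1758.4, 1436.5 and 1863.5 with ND13, 1192.6, 1087.2 and 1467.2 with NA10 and 1660.6, 1066.4 and 1386.3 for the mutant. All 9 fusion arrays lay above the controls, a log2 change of 1.15 ± 0.13 (limma's adjusted p = 0.00601). The mean of the active fusions was 0.10 above that of the mutant on the log2 scale with a 95% interval of -0.21 to 0.40. Itgb2 was the 1 gene called of 21 integrins and adhesion molecules, whose median was 0.01 with 11 higher by value.

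Ms4a6d, a membrane-spanning protein of myeloid cells, read 367.1, 309 and 213.8 in the GFP control, 1292.9, 623.7 and 510 with ND13, 742.3, 553.5 and 607 with NA10 and 1250.8, 650.5 and 550.6 for the mutant, without overlap. Its change was 1.29 ± 0.18 (limma's adjusted p = 0.0213), with 1.36, 1.12 and 1.40 for the 3 fusions, and its other probe sets gave 1.40 and 0.60 without a call. Csf2rb2, the IL-3-specific beta subunit of the IL-3 receptor, read 292.1, 442.1 and 353 in the GFP control, 2163.6, 1666.8 and 1765.4 with ND13, 1090.7, 648.8 and 946.2 with NA10 and 975.2, 2299 and 830.5 for the mutant, a change of 1.82 ± 0.27 (0.0292 by limma after adjustment). Both genes were higher on every fusion array. Ifitm6, an interferon-induced membrane protein, had 1.21 and was not called (limma's adjusted p = 0.0798). Plxnc1, a plexin that serves as receptor for a semaphorin, rose by 1.34 ± 0.21 and did not overlap either (adjusted p = 0.0399 by limma), while its other probe sets gave 0.41 to 0.92 without a call. Ccr1, a receptor for inflammatory chemokines, rose by 1.01 on average, with values of 2.09 for ND13, 0.17 for NA10 and 0.75 for the mutant. Its second probe set, not called, gave 2.08, 0.65 and 1.298. Ctsh, a lysosomal cysteine protease, was also lowest with NA10 but highest with the mutant, at 1.54 with ND13, 0.56 with NA10 and 1.94 with the mutant.

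Cd28, known as the costimulatory receptor of T cells, lay below background on all 3 control arrays at 11.3, 20.1 and 16.5 and above it on all 9 fusion arrays, at 350.9, 111.7 and 99.7 with ND13, 170.6, 82.6 and 129 with NA10 and 132.2, 72.4 and 73.1 for the mutant. Against the background level it was at least 3.67-fold higher over all fusions and at least 2.73-fold with the mutant (limma's adjusted p = 0.0213). A second probe set of Cd28, not called, gave a log2 change of 1.90. The genes of B and T lymphoid cells, 22 measured, had a median of -0.03 with 0 higher by the unadjusted rule. Their summed signal was 1427 to 1781 in the GFP control, 1344 to 2050 with ND13 and 1171 to 1670 with NA10. With the mutant it was 1877 to 2376, above all control arrays.

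Markers of monocytes and macrophages had medians above that of all genes with every fusion, and no gene of the list was called. Of the 25 markers, 12 (48%) were higher by the unadjusted rule and 0 lower, with a median log2 change of 0.69, made of 0.61 with ND13, 0.30 with NA10 and more with the mutant. Summed over the list, the signal was 23550, 15712 and 12854 in the GFP control (replicates 1 to 3). It was 23102 to 35682 with ND13, 16700 to 21086 with NA10 and 24152 to 46957 with ND13(N51S). All NA10 arrays and ND13 replicates 2 and 3 lay below control replicate 1 and above control replicates 2 and 3. Of the list's defining markers Csf1r, the receptor for M-CSF, had 0.79 and Adgre1, the F4/80 antigen, 1.15 (limma's adjusted p = 0.114 and 0.107). Both were above background on all 12 arrays, while Marco and Cd163 of tissue macrophages were above it on 1 and 2. Some markers above background on all 12 hardly moved or were lower: Cd14 had 0.06, Lyz2 0.05, Ccr2 0.05, Tlr4 -0.03, Msr1 -0.07 and Cybb -0.32. By value 20 of the 25 were higher and 5 lower. Lgals3, which encodes galectin-3, read 1651.2, 2083.8 and 1369.6 in the GFP control and 2230.4 to 8483.2 with the fusions, and Mrc1, the mannose receptor, 91.2, 148.5 and 99.9 and then 190.8 to 1418.9. Neither overlapped, and their adjusted p in limma was 0.0566 and 0.0959. Without ND13(N51S) replicate 2, 4 of the list were called, Cd68, Ctss, Lgals3 and Mrc1. What part such cells had in the rise of Itgb2, Ms4a6d, Ctsh and Ccr1 was not tested.

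Genes of MHC class II presentation, through which antigen-presenting cells show peptides to helper T cells, had the highest median of the 35 lists, 0.81 over all fusions. It was 0.93 with ND13, 0.43 with NA10 and 1.07 with the mutant. By the unadjusted rule 6 of 10 were higher, and none was called. Cd74, the invariant chain, read 643.6, 414 and 562.6 in the GFP control, 3709.4, 1604 and 2243.9 with ND13, 1203.2, 919.6 and 486.2 with NA10 and 4257.5, 1842.9 and 476.4 for the mutant. The third NA10 and the third mutant array lay among the controls, and its adjusted p was 0.26 in limma. Without GFP control replicate 1 the median of the list was 0.46. Megakaryocyte and platelet genes, 15 measured, were higher by value without exception as deposited, with 5 higher by the unadjusted rule and medians of 0.48, 0.45 and 0.52 with the 3 fusions. F2rl2, a thrombin receptor, read 152, 238.4 and 244 and then 289.6 to 633.1 (1.04, adjusted p = 0.0675 by limma), and Pf4, a platelet chemokine, 3406.4, 3429.2 and 2017.3 and then 3875.7 to 6531.2 (0.80, 0.0869 likewise). After median centring 14 of the 15 were higher by value.

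Olfm1 encodes a secreted olfactomedin glycoprotein best known from neurons. It read 131.1, 17.3 and 28.6 in the GFP control, the latter pair below background, 550.2, 224.8 and 270.7 with ND13, 419.8, 246.8 and 285.3 with NA10 and 317.5, 219.7 and 231.1 for the mutant. Every fusion array was higher than every control array, by a mean of 2.87 ± 0.32 (limma's adjusted p = 0.00452), and the 3 fusions were close at 3.004, 2.94 and 2.65. The size rests on control values near background and was 1.91 with a pseudocount of 41.5. Its other probe sets, with mean signals of 17.8 and 75.5, gave 1.79 and 1.12 without a call. Tgfbi, a matrix protein induced by TGF-beta, read 734, 446.5 and 347 in the GFP control, 2305.6, 888.9 and 1095.6 with ND13, 1742.9, 1204 and 798.8 with NA10 and 1851.5, 673.1 and 871.7 for the mutant. The second mutant array lay below the first control array, and within each replicate number the fusions were higher than the control, by 1.27 ± 0.17 on average (adjusted p = 0.0213 by limma). Another probe set of Tgfbi rose by 0.95, and the other 2 gave 0.95 and 0.69 without a call. Of the list of fibroblast and matrix genes none was called, and 16 of 28 were lower by value.

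**Figure D2:**
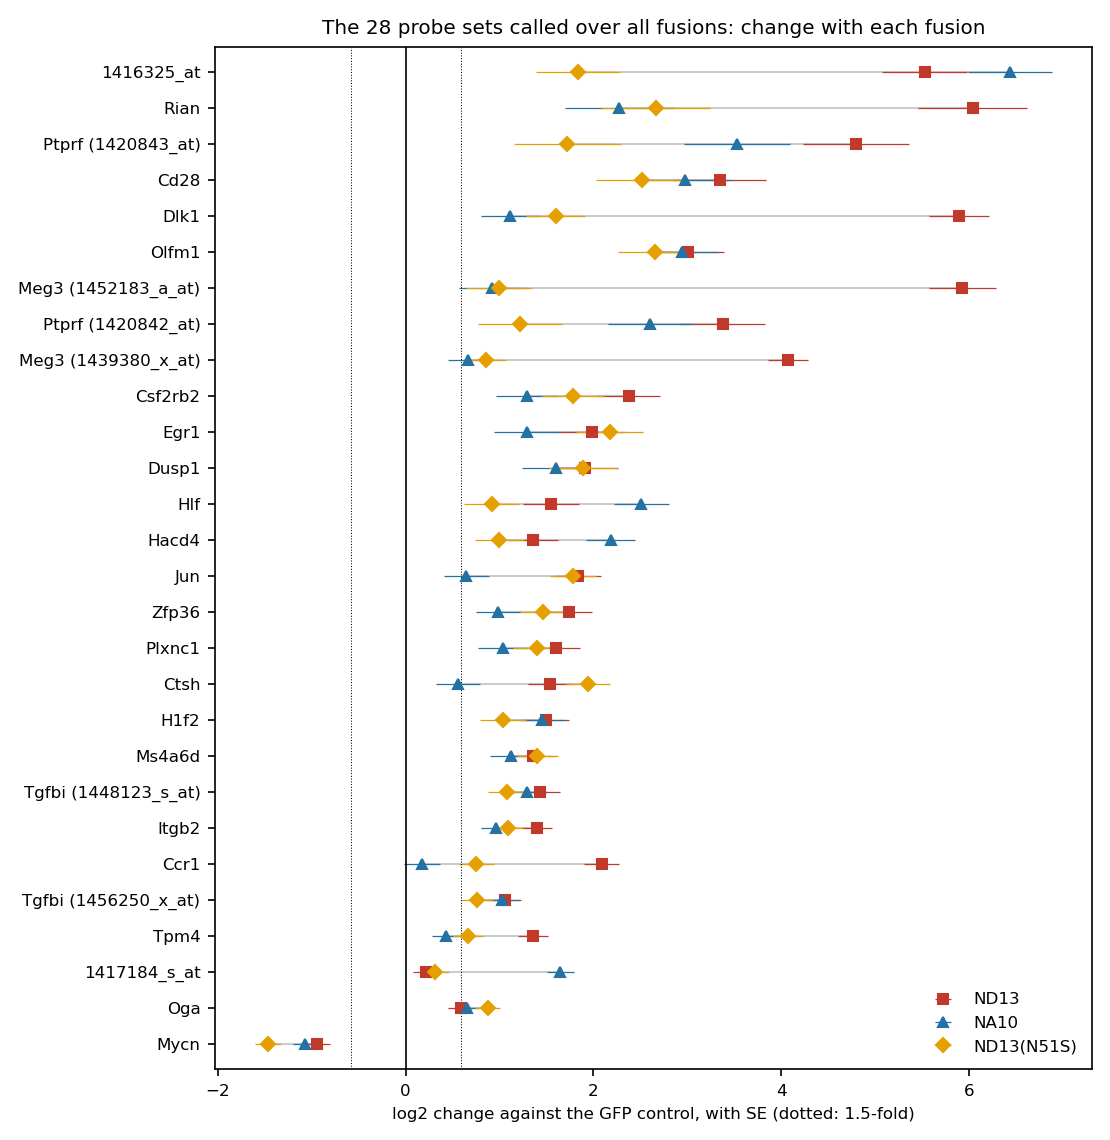
Log2 change against the GFP control with its SE for the 28 probe sets called over all fusions, with squares for ND13, triangles for NA10 and diamonds for ND13(N51S), and dotted lines at 1.5-fold. The 3 marks lie close together for Olfm1, Dusp1, Tgfbi and Itgb2 and far apart for Dlk1, Meg3, Rian and the probe set without a gene.

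H1f2, a linker histone, rose by 1.33 ± 0.20 without overlap, and Oga, which removes O-linked N-acetylglucosamine from proteins, by 0.71 ± 0.11 without overlap, from 1417, 1779.6 and 1863 in the GFP control to 2344.6 at the lowest fusion array (limma's adjusted p = 0.031 each). Of the other H1f2 probe sets, 1 gave 1.29 and the other ran the opposite way at -0.36, with -0.35, -0.37 and -0.34 for the 3 fusions, and neither was called. Oga had 0.88 with the mutant, 0.59 with ND13 and 0.65 with NA10, and the active fusions lay below the mutant with a 95% interval of -0.51 to -0.0045. Its other probe sets gave -0.08 to 0.96 without a call. Hacd4, which acts in the elongation of fatty acids, rose by 1.51 and Hlf, a transcription factor of primitive hematopoietic cells, by 1.66, and both were highest with NA10, at 2.18 and 2.51, and lowest with the mutant, at 0.997 and 0.92. Neither Hacd4 nor Hlf passed with the mutant alone (limma's adjusted p = 0.201 and 0.295). The active fusions lay above the mutant by 0.77 for Hacd4 (95% interval 0.28 to 1.27) and by 1.11 for Hlf (0.55 to 1.67). Over all probe sets neither difference passed (limma's adjusted p = 0.18 and 0.11). A second Hlf probe set gave 1.17 without a call. Tpm4, a tropomyosin of the actin cytoskeleton, rose by 0.82, more with ND13 (1.36) than with NA10 (0.43) or the mutant (0.67).

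Mycn was the 1 probe set that fell. It encodes N-Myc, which like Myc drives growth and the production of ribosomes. The probe set read 8754.3, 8827.7 and 12180 in the GFP control, 4537.5, 4396.6 and 6597.5 with ND13, 5041.7, 3306.3 and 6155.3 with NA10 and 3321.6, 3351.2 and 4000.4 for the mutant. All fusion arrays were lower than all control arrays, with a log2 change of -1.16 ± 0.11 (limma's adjusted p = 0.00171), and the mutant was lowest. With the mutant alone it was -1.47, and the active fusions lay 0.46 above the mutant (95% interval 0.20 to 0.72, adjusted p = 0.138 by limma over all probe sets). The change stayed between -1.22 and -1.10 in every fit with 1 array left out. The other 2 probe sets of Mycn, with mean signals of 1352 and 89.9 against 5873 for this one, gave 0.25 and -0.20 and were not called. Of the 11 genes of the Myc and Max network Mycn was alone in being called, and Myc, at 2132.3, 2867.6 and 3297.4 in the GFP control and 1621.8 to 2843.1 with the fusions, had -0.31 (limma's adjusted p = 0.475).

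Genes of ribosome biogenesis, the making of ribosomal RNA and its assembly in the nucleolus, were lower by value in 42 of 42 cases. None was called, 0 were higher and 1 lower by the unadjusted rule, and the median change of -0.23 was small (-0.24 with ND13, -0.19 with NA10, -0.27 with ND13(N51S)). Bysl, an assembly factor of the small subunit, read 1532.8, 939 and 1646.5 in the GFP control and 571.6 to 1379.5 with the fusions (-0.74, adjusted p = 0.115 by limma). Utp4 of the same process read 3339.3, 3042.7 and 3199.8 and then 1953.5 to 3046.3 (-0.43, 0.251 likewise). The level of the list was 0.24, 0.14 and 0.22 in the GFP control and -0.40 to 0.14 with the fusions, the lowest value being that of ND13(N51S) replicate 2. Without that array the median was -0.18 with 40 of 42 lower, and without GFP control replicate 1, 2 or 3 in turn 38, 38 and 39 were lower. Cytosolic ribosomal proteins, 28 measured, had a median of 0.02. Genes of DNA replication and S phase gave a median of -0.17 with 33 of 40 lower by value and 1 lower by the unadjusted rule, and nucleoporins and transport factors, the partners of NUP98 at the pore, -0.14 with 35 of 47 lower and 0 by that rule.

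**Figure D3:**
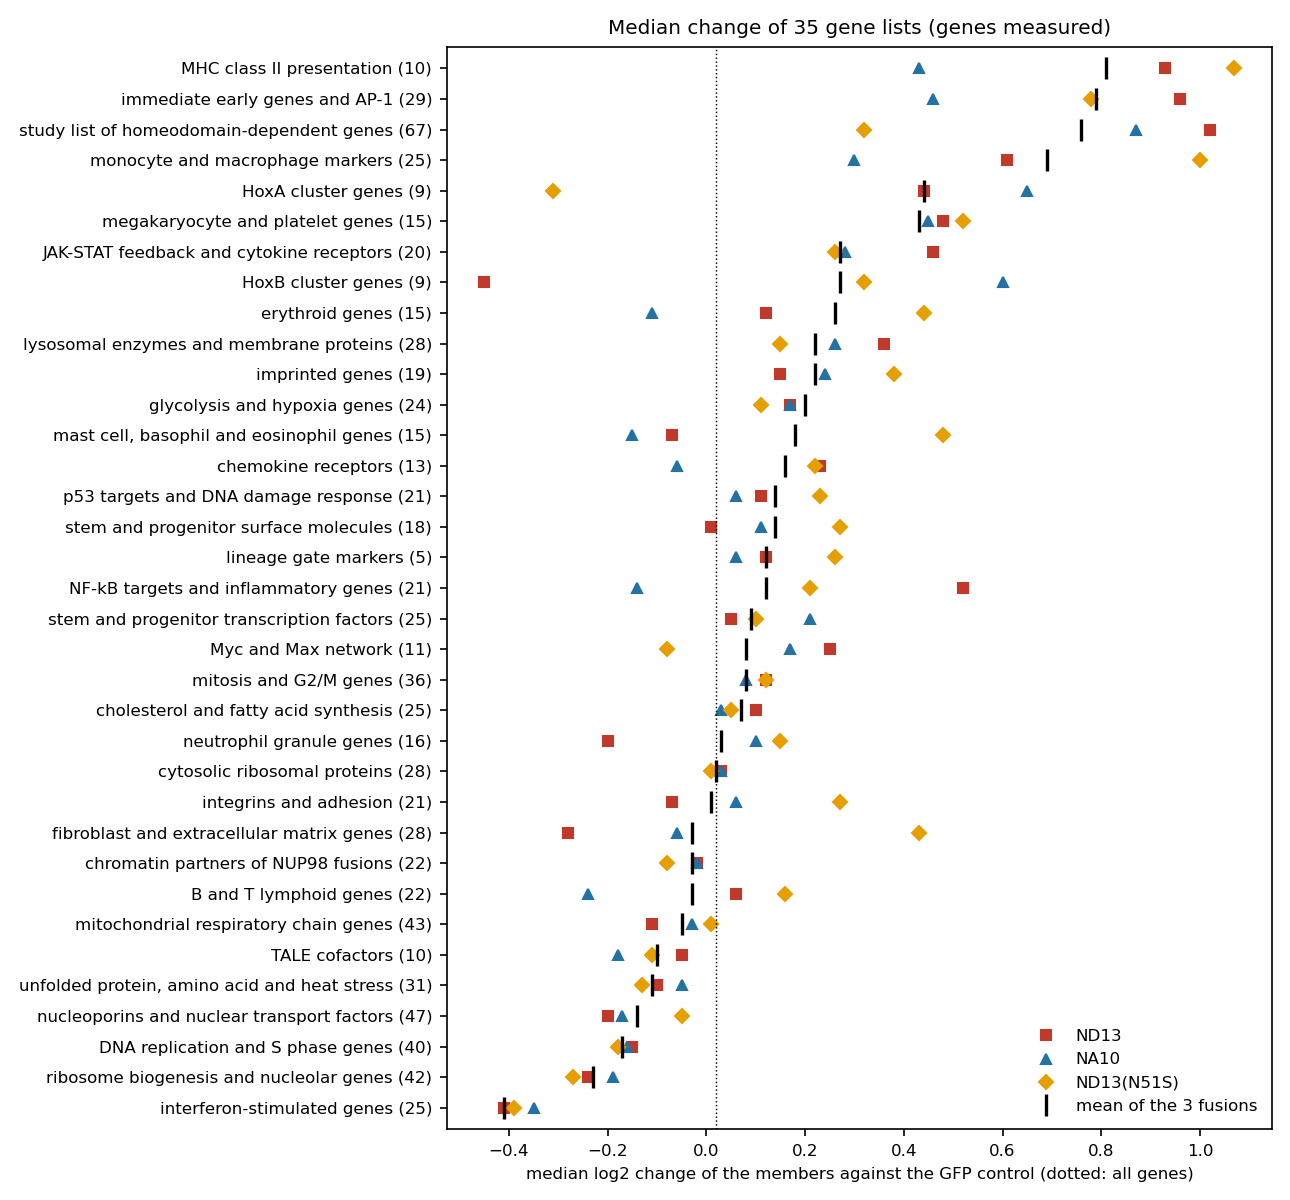
Median log2 change against the GFP control of the genes of 35 lists (number measured in parentheses) with ND13, NA10 and ND13(N51S), with a bar for the mean of the 3 fusions and a dotted line at the median of all genes, 0.02. MHC class II and immediate early genes lie farthest right at 0.81 and 0.79, and interferon-stimulated genes farthest left at -0.41.

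Interferon-stimulated genes had the lowest median, -0.41 over all fusions (-0.41 with ND13, -0.35 with NA10 and -0.39 with the mutant). By value 23 of 25 were lower, 4 of them by the unadjusted rule (Usp18, Gbp3, Bst2 and Mx1), and none was called. The control arrays spread widely. Usp18, which removes the ubiquitin-like protein ISG15, read 1523.3, 170.6 and 566.5 in the GFP control, 231.9, 175 and 188.7 with ND13, 112, 87.5 and 193.7 with NA10, and 323.6, 260.2 and 501.9 for the mutant. The level of the list was 1.16, -0.39 and 0.42 on the 3 control arrays and -0.26 to 0.21 on the fusion arrays. With GFP control replicate 1 left out the median was -0.25, with 18 of 25 lower. With GFP control replicate 2 left out it was -0.90.

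**Figure D4:**
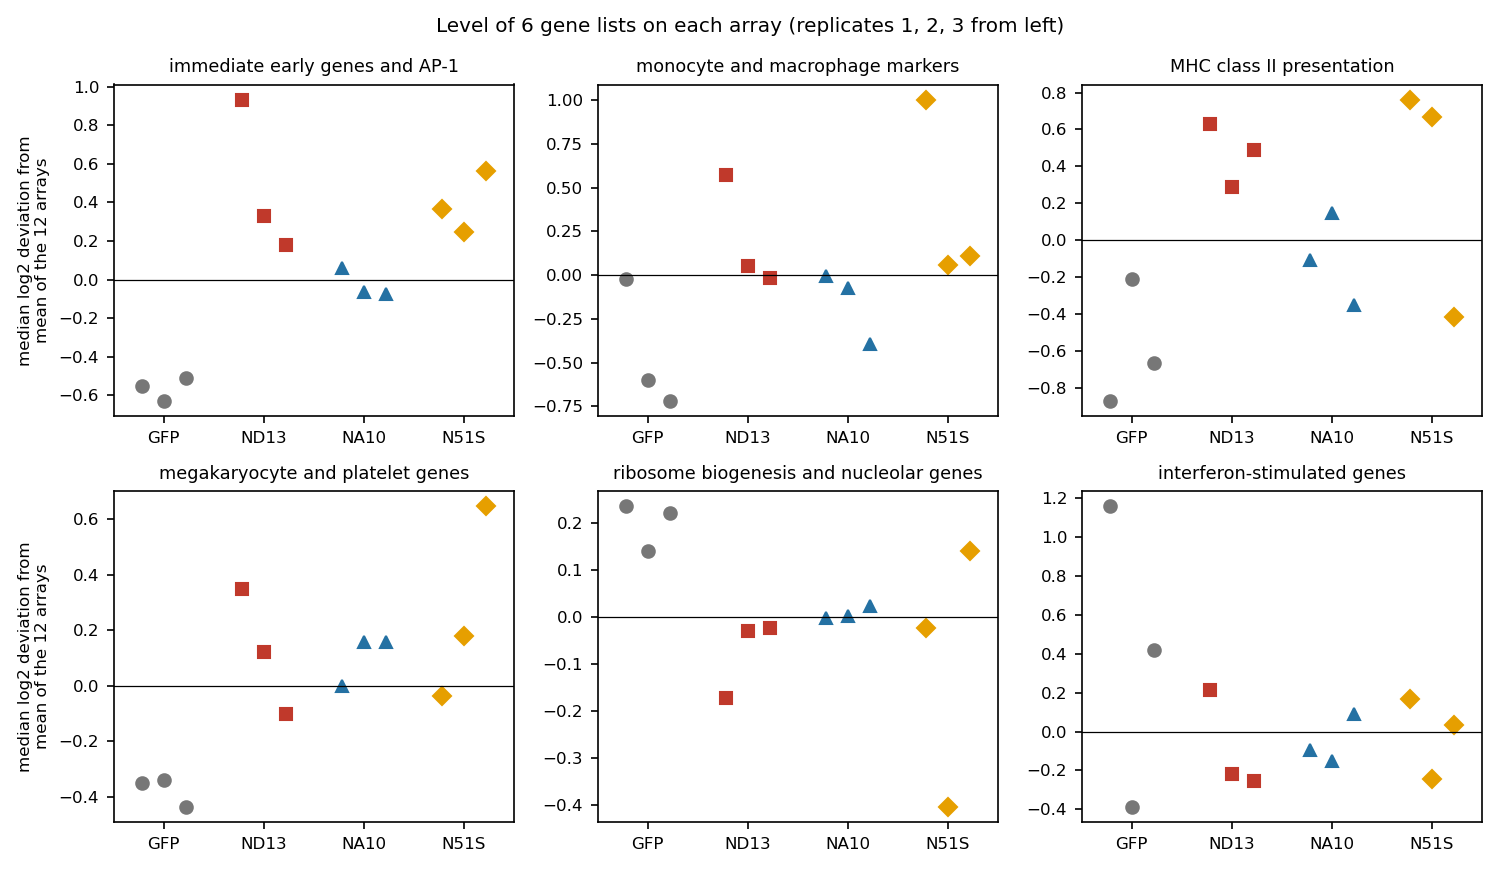
Level of 6 gene lists on each array, as the median log2 deviation of the list's genes from their mean over the 12 arrays, by group with replicates 1, 2 and 3 from left to right. Control arrays lie below all fusion arrays for immediate early and for megakaryocyte genes, and spread from -0.39 to 1.16 for interferon-stimulated genes.

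Over the 35 lists the 9 fusion arrays lay wholly above the controls in 5 and wholly below them in 1. The 5 were immediate early genes, megakaryocyte and platelet genes, JAK-STAT feedback genes and cytokine receptors (median 0.27), p53 targets (0.14) and the genes that the study chose on these samples as dependent on the homeodomain (0.76), and the 1 was DNA replication. The study's list, which is not independent evidence of its direction, had 67 measured members with medians of 1.02 with ND13, 0.87 with NA10 and 0.32 with the mutant. Of these 2, Hlf and Ptprf, were called here, and 39 were higher by the unadjusted rule. Neutrophil granule genes (0.03), genes of mast cells, basophils and eosinophils (0.18), erythroid genes (0.26) and stem cell surface molecules (0.14) gave arrays of both kinds that overlapped. Fibroblast and matrix genes, the kind made by fibroblast lines such as the virus producers, had a median of -0.03, and their summed signal was 10704 to 12204 in the GFP control, 8587 to 11940 with ND13 and NA10, and 13529 to 14944 with ND13(N51S).

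The differences among the fusions do not use the levels of the control arrays. The moderated F test for any difference among the 3 fusions passed in limma after adjustment for 16 probe sets in all (0.0707%), of which 6 were among the 27 that rose, for Dlk1, Meg3 (2 probe sets), Ccr1 and both probe sets without a single gene. For 11 of the 27, of Olfm1, Itgb2, Tgfbi, Ms4a6d, Cd28, H1f2, Oga, Plxnc1, Egr1 and Dusp1, even limma's unadjusted p missed the threshold, which does not show that the fusions acted alike. For 13 of the 27 the 95% interval of the difference between the active fusions and the mutant included 0. The interval was -0.41 to 1.05 for Olfm1, -0.55 to 0.36 for Zfp36, -0.82 to 0.55 for Dusp1 and -0.12 to 0.67 for the first Tgfbi probe set, on the log2 scale. For Jun the mean of the active fusions minus the mutant was -0.54 (-1.002 to -0.08), with changes of 1.84 for ND13, 0.65 for NA10 and 1.79 for the mutant. For Ctsh it was -0.89 (-1.34 to -0.45), with both active fusions below the mutant. Over all probe sets neither difference passed (limma's adjusted p = 0.29 for Jun and 0.11 for Ctsh).

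**Figure D5:**
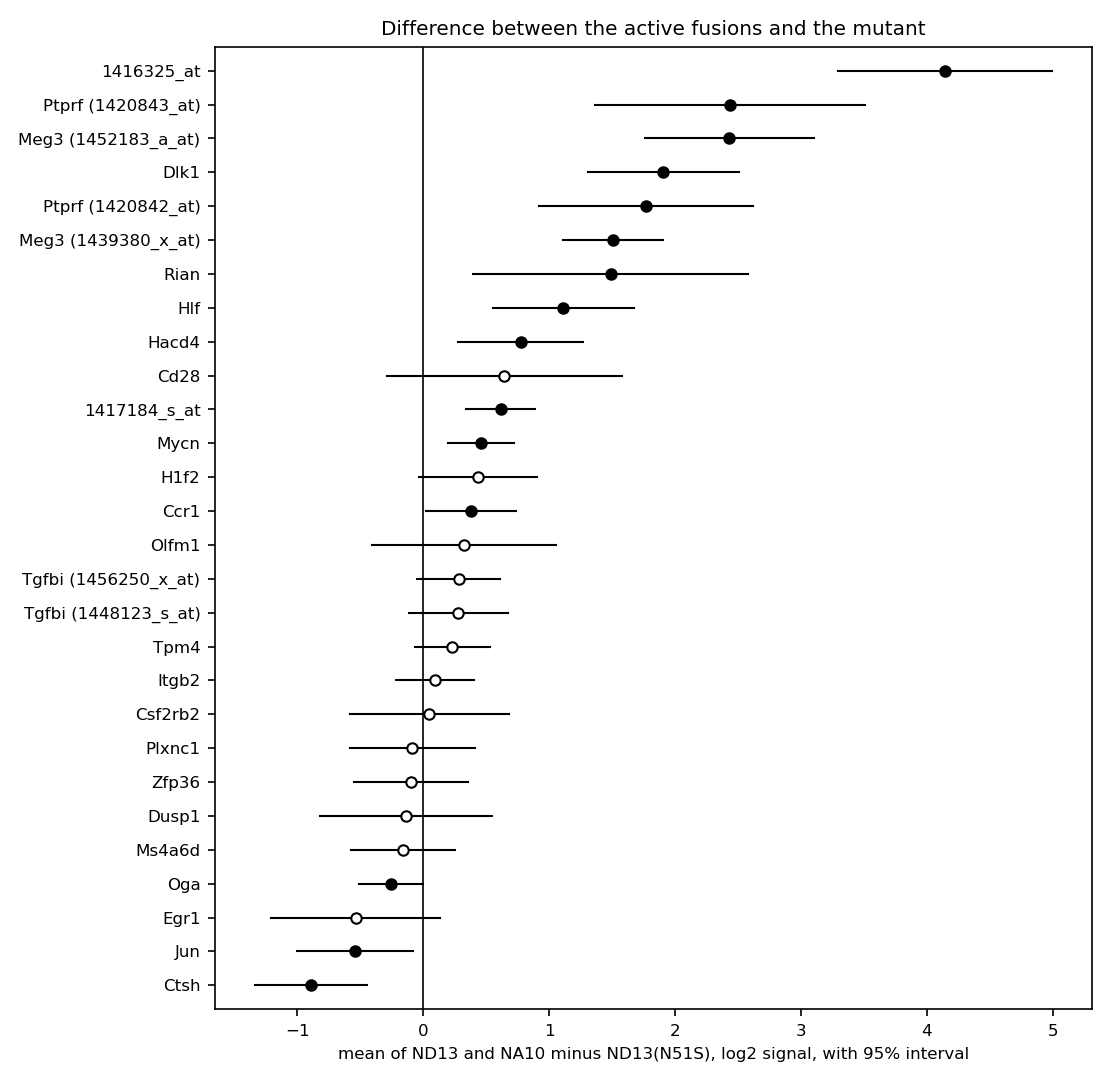
Difference in mean log2 signal between the active fusions (ND13 and NA10) and ND13(N51S), with its 95% interval, for the 28 probe sets called over all fusions. Open circles mark the 13 intervals that include 0. Ctsh, Jun and, narrowly, Oga lie below 0, and Dlk1, Meg3, Ptprf and the probe set without a gene far above it.

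Some genes met the rule although 1 or 2 fusions carried most of the mean. Dlk1, whose product is a membrane protein resembling the ligands of Notch, read 124.4, 123.2 and 587.8 in the GFP control, 13177.7, 8489.9 and 16892.6 with ND13, 470.6, 235.7 and 826 with NA10 and 747.2, 400.2 and 835.6 for the mutant. NA10 and the mutant overlapped the third control array, yet within each replicate number they were above the control, by 1.12 and 1.598 on the log2 scale. Neither passed the test singly (limma's adjusted p = 0.424 and 0.12), against 5.89 with ND13. Meg3 and Rian are noncoding RNAs made from the imprinted region that also holds Dlk1. For the Meg3 probe set with the smaller p the log2 change was 4.07 with ND13, 0.66 with NA10 and 0.86 with the mutant, and all fusion arrays were above the controls. Of the other Meg3 probe sets 1 was called and 3, at 0.42 to 1.77 over all fusions, were not. The other called one was above background on 5 fusion arrays. It read 34.8, 21.1 and 29.5 in the GFP control, 121.4, 36.4 and 33.5 with NA10 and 126.9, 30.3 and 44.6 for the mutant. Of those not called, the dimmest gave -0.37 with NA10. Rian was below background in the GFP control by the called probe set and was at least 13.4-fold higher with ND13. With NA10 it read 50.2, 34 and 19.1 and with the mutant 52.6, 65.1 and 21.6, at or near background, and no bound is given. The other Rian probe sets were not called (limma's adjusted p = 0.468 and 0.913). For ND13 they gave 3.42 and 1.004, for NA10 -0.41 and -0.61, for the mutant 0.54 and 0.18, so that the sign with NA10 was not shared by the 3 probe sets.

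Ptprf, a receptor tyrosine phosphatase, was below background in the GFP control by 1 of its probe sets, at 19, 13.5 and 30.3, and read 725.9, 599.7 and 385 with ND13, 269.9, 215.7 and 204.7 with NA10 and 88.6, 152.5 and 20.7 for the mutant. It was at least 6.20-fold higher over all fusions, at least 16.9-fold with ND13, 7.01-fold with NA10 and 2.01-fold with the mutant, though the third mutant array lay below background. Of its other probe sets 1 was called, with 2.40 over all fusions, and 1 was not, with 0.92. The probe set with no gene assigned in the tables used here read 52.5, 6.9 and 14.3 in the GFP control, 1249, 641.6 and 628.4 with ND13, 1574.3, 975 and 2175.6 with NA10 and 66.6, 56.2 and 62.3 for the mutant. The mutant arrays lay above their backgrounds of 50.4, 51.9 and 47.8, and the active fusions lay 4.15 above the mutant on the log2 scale (95% interval 3.298 to 4.996). This was the widest such gap among the 27. Since 2 of the 3 control arrays were below background, the size of the change against the control is not fixed, and its mean was 4.60 as deposited and 3.01 with the pseudocount.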

How the data were processed

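RNA of 12 samples was hybridised to Affymetrix MOE430A arrays. The authors deposited linear MAS5 signal intensities, scaled by them to a trimmed mean of 500.2 on each array. From these, log2 values (signals below 0.01 set to it) of 22626 probe sets, without 64 control probe sets, were fitted in limma 3.58.1 (R 4.3.3) with 4 group means and the replicate number as a block, then eBayes with trend and robust settings. Calls took a Benjamini-Hochberg adjusted p < 0.05, at least 1.5-fold, and the same sign with each fusion. Signals below background give bounds only. Precision is limited by 3 arrays a group. The members, rule and gene lists were chosen with earlier results of these data known. Named were the 20 higher and 10 lower called probe sets of smallest p with 1 gene and a higher side above background, at most 4 called members of each list, called genes whose fusions differed, the genes of the constructs, and Mycn, Jun, Zfp36 and Ifitm6. Other called genes, and list members that were not called, were named after their values were seen.

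The block was part of the design. Deviations of same-numbered arrays from their group means had r of 0.106 to 0.596 in 18 pairs, against -0.422 to 0.107 in 36 pairs of different numbers, over probe sets above the median signal. Over all probe sets they were 0.031 to 0.156 against -0.105 to 0.025. Deviations cancel out within a group, so a positive r of same numbers forces a negative r of different numbers. The contrast is thus partly fixed in advance. The labels give independent experiments and do not say that a number marks a shared one. The fit was tested on simulated data. Other normalisations, filters, models and arrays left out were tried. Figures were drawn with matplotlib 3.10.9.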

Additional observations from a re-analysis of the deposited data

Results flagged for a closer look

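The 3′-to-5′ ratios of ND13(N51S) replicate 2 stood apart among the 9 fusion arrays. Its gap to the nearest array was a fraction of 0.983 of the whole range for Gapdh and 0.91 for actin, and chance alone marks about 1 in 20 such groups. Of the 27 probe sets that rose, 6 also differed among the 3 fusions by limma's moderated F test. The adjusted p was 4.98e-05 and 6.64e-05 for the Meg3 probe sets, 6.64e-05 for Dlk1, 0.00426 for Ccr1, and 0.0033 for each of the probe sets without a single gene. Of the last, the one matching several genes was highest with NA10, at 1.65 on the log2 scale against 0.22 with ND13 and 0.32 with the mutant.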

How the results depend on the processing

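Counts are of probe sets called higher and lower over all fusions (27 and 1 as reported), then with ND13 (67), NA10 (9) and ND13(N51S) (6), then differing among the fusions (16). With no replicate block, so without the pairing of replicate numbers, they were 6 and 0, then 20, 3 and 0, then 6. With the block as a random effect 17 rose, 0 were called with the mutant and 9 differed. With dim probe sets left out the mutant gave 12. With the pseudocount 2 fell, the mutant gave 10 and 29 differed. With median centring 17 rose and 29 differed. Plain eBayes gave 5 higher, then 9, 4 and 0, then 5. With 1 probe set per gene NA10 gave 5, and 7 differed. Array weights gave 62 and 2, then 217 and 55, then 47 differing. Without GFP control replicate 1 and ND13(N51S) replicate 2 together they were 13 higher, then 101, 18 and 2, then 83. Fusions and control as 2 groups gave 5 higher. A Welch t-test of the 9 fusion arrays pooled against the 3 controls, with the same fold and sign rules, gave 512 and 303 unadjusted, and 2 and 0 adjusted. The study's own t-test took each fusion separately on differently normalised values, so these counts are not its counts. With every fusion past the test on its own 0 rose. With 1 array left out at a time the counts ran from 5 to 91 higher, 1 to 3 lower, 6 to 231 with ND13, 2 to 50 with NA10, 0 to 124 with the mutant and 4 to 85 differing. None of the 28 called probe sets changed direction under these alternatives, which were not run for single probe sets that were not called. The causes of these shifts were not tested. Signals near background limit the size of the changes of Olfm1, Cd28, Rian, Ptprf and the probe set without a gene.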
